A study of Mus musculus with 6 samples.

Results

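The nuclear-encoded subunits of the respiratory chain were examined in sorted splenic B cells of a mouse model of chronic lymphocytic leukaemia (CLL). They were taken from the count table by gene symbol, as all rows named for subunits of complexes I to V, and 2 processed pseudogenes, Ndufs6b and Ndufb4c, were left out. This gave 85 of the 54232 rows: 38 for complex I, 4 for complex II, 9 for complex III, 17 for complex IV and 17 for complex V. Both groups were C57BL/6J WT recipients injected intraperitoneally with CLL cells from Eµ-TCL1 mice, in which the TCL1 oncogene is driven in B cells by an immunoglobulin heavy chain enhancer. The CK1i group (n = 3 libraries) received PF-670462, an inhibitor of casein kinase 1δ and 1ε, by mouth at 50 mg/kg, in cycles of 5 treatment days and 2 recovery days. The CTRL group (n = 3 libraries) received the vehicle, 10% kolliphor in PBS, on the same scheme. Dosing began 5 days after cell transfer and ended when CTRL mice reached terminal disease, set at a minimum of 60% CD5+ CD45R(low) cells among blood leukocytes. The treatment time is recorded as 8 weeks for both groups. The labels give all 6 libraries the same batch number. Each sample title carries its own number, but the labels do not say whether it names a separate mouse. The p-values therefore rest on the spread between libraries, which may be technical.

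Complex I passes electrons from NADH to coenzyme Q, complex II does the same from succinate, complex III hands them to cytochrome c, and complex IV gives them to oxygen. Complexes I, III and IV pump protons as they do so, and complex V, the ATP synthase, makes ATP from the returning protons. Most subunits are encoded in the nucleus and imported, while a small set in complexes I, III, IV and V is encoded by mitochondrial DNA, so assembly needs both genomes and a large set of assembly factors. CLL cells are known for a high reliance on oxidative phosphorylation.

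Expression was measured with QuantSeq 3′ sequencing, which counts 1 tag near the 3′ end of a transcript, so counts are not divided by length. The libraries held 3105137, 3045311 and 2472064 counts in CK1i and 2859649, 2472320 and 3064371 counts in CTRL. B-cell and CLL markers summed to between 16689 and 21434 CPM (counts scaled by library total and TMM factor) in CK1i libraries and between 19511 and 22398 CPM in CTRL libraries. The 9 T-cell markers summed to between 290 and 360 CPM in CK1i and between 293 and 404 CPM in CTRL. Of these, Cd2, Lck and Trac were tested, and the CD3, CD4 and CD8 genes were too low to test. The NK-cell markers summed to at most 1.30 CPM in a CK1i library and 0.798 CPM in a CTRL library, and the neutrophil markers to at most 3.29 and 0 CPM. The monocyte and macrophage markers summed to between 35.6 and 45.1 CPM in CK1i, against between 27.3 and 30.3 CPM in CTRL, with Cd14 at 0 counts. The 10 proliferation genes summed to between 1327 and 2060 CPM in CK1i, against between 589 and 1119 CPM in CTRL. The part of these markers in the values below was not tested.

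Respiratory chain transcripts were plentiful in the leukaemic cells. The 85 genes took 1.00%, 0.922% and 1.04% of all counts in CK1i libraries, against 0.837%, 1.05% and 0.894% in CTRL libraries. The groups overlapped, and CTRL replicate 2 had the highest share of the 6 libraries. With a filter on low counts, 73 of the 85 genes could be tested: 35 of complex I, all 4 of complex II, 8 of complex III, 10 of complex IV and 16 of complex V. Mean levels of these 73 over the 6 libraries ran from 6.83 CPM for Atp5g2 to 634 CPM for Atp5g3, both encoding the c subunit of the ATP synthase ring, with a median of 105 CPM. The median level per complex was 82.9 CPM for complex I, 118 CPM for complex II, 138 CPM for complex III, 181 CPM for complex IV and 139 CPM for complex V. Whether 3′ ends of different genes were captured equally was not tested, so this order describes tags and not protein subunits. In such bulk samples, fewer cells with a transcript and less of it per cell cannot be told apart.

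**Figure D1:**
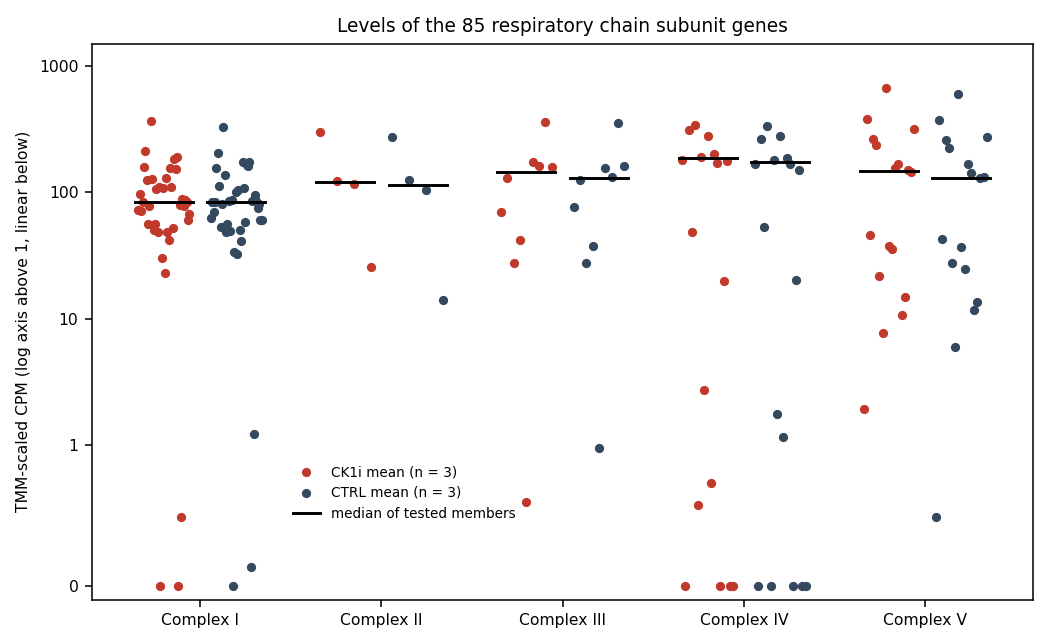
Mean TMM-scaled CPM of each of the 85 genes in CK1i (left of each pair, n = 3) and CTRL (right, n = 3), grouped by complex, on an axis that is logarithmic above 1 and linear below; black lines mark the median of the tested genes. The paired lines lie at nearly the same height in every complex, and 12 genes lie at or near 0.

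Of the 85 genes, 12 were not tested. Among them Ndufb11b, Cox4i2, Cox7b2, Cox8b and Cox8c, had 0 counts in every library, which allows a level of up to 0.176 CPM over the 6 libraries together. Cox6a2 had 5 counts, Cox7a1 had 16 and Cox6b2 had 37 over the 6 libraries. Cox4i2, Cox6a2, Cox6b2, Cox7a1, Cox8b and Cox8c are isoforms of complex IV subunits known from lung, heart, muscle or testis, and nearly all tags fell on their ubiquitous counterparts. Cox4i1 took all 2938 counts of its pair, Cox7b all 2837 and Cox8a all 2749. Cox6a1 made up 99.8% ± 0.0997 of its pair in CK1i and 100% ± 0 in CTRL, Cox6b1 98.6% ± 0.539 and 99.1% ± 0.802, and Cox7a2 99.6% ± 0.193 and 99.4% ± 0.395 (SD, n = 3 each, CK1i first). In complex V, the same c subunit protein is made from 3 genes. Atp5g3 supplied 95.8% ± 0.223 of their counts in CK1i and 94.5% ± 2.08 in CTRL, Atp5g1 supplied 3.15% ± 0.343 in CK1i and 4.56% ± 1.76 in CTRL, and Atp5g2 supplied 1.09% ± 0.256 in CK1i and 0.971% ± 0.343 in CTRL (SD, n = 3 each). The small share of Atp5g2 is uncertain, because 2 near-identical pseudogene copies of its 3′ end held 1083 counts, against 116 for Atp5g2 itself.

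The other 4 untested genes encode subunits that every respiring cell needs. Ndufs3, a core subunit of complex I, had 1 count over the 6 libraries, Ndufs5, an accessory subunit of complex I, had 14, Uqcrc1, a core protein of complex III, had 13, and Atp5a1, the α subunit of the F1 head of ATP synthase, had 21. Atp5a1 counts were 7, 7 and 3 in CK1i, against 0, 2 and 2 in CTRL. With no filter on low counts its log2 fold change was 1.94 ± 0.79 (SE; adjusted p = 0.825, edgeR). Their partners in the same complexes were abundant, since the F1 β subunit gene Atp5b averaged 378 ± 23.2 CPM (CK1i) and 377 ± 56.7 CPM (CTRL; SD, n = 3 each). No other annotated exon overlaps the last 500 exonic bases of the 4 genes on either strand, and Ndufs3 and Ndufs5 each have 1 near-identical pseudogene copy elsewhere in the genome. Over the whole set, the 17 genes with a near-identical copy of any kind, 15 of them tested, had a median of 503 counts. The 68 without one, 58 of them tested, had a median of 1812 counts. These medians include the untested genes, and a copy was at least 97% identical over at least 75 bases. Rules for multi-mapped reads are not given in the sources used here.

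The question for each gene was whether it differed between leukaemic cells from CK1i and from CTRL mice, and for each complex whether its genes moved together. No gene of the 73 passed an adjusted p of 0.05 in edgeR's quasi-likelihood test, and the same held in edgeR for all 10067 genes tested (0.00% called). At an unadjusted p under 0.05 in edgeR stood 2 of the 73 (2.74%), Ndufb11 and Ndufb4, against 473 of all genes (4.70%). limma-voom gave 2 of the 73, Ndufb11 and Sdhd (4.78% of all genes), and DESeq2 gave 0 (3.16% of all genes). After adjustment limma-voom called 0 of all genes and DESeq2 called 8, none of them among the 73. Of the 2 edgeR genes, 1 was higher in CK1i (2.70% of all genes) and 1 lower (2.00% of all genes). Groups that did not overlap were found for 7 of 73 (9.59%), against 9.70% of all genes. All 7 were higher in CK1i and 0 lower, against 5.22% of all genes higher and 4.48% lower: Ndufa3, Ndufa6, Ndufa10, Ndufb11 and Ndufs8 of complex I, Sdha of complex II and Uqcrc2 of complex III. Taken over both directions, these shares lie near the background or below it.

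The estimates were small and fairly tight. The median log2 fold change, CK1i over CTRL, was 0.06 over the 73 genes, against -0.01 over all genes, which corresponds to a fold of 1.04. The log2 fold change was above 0 for 51 of 73 genes (69.9%), against 48.8% of all genes. The median standard error was 0.16 on the log2 scale, against 0.19 for all genes. For 59 of 73 genes (80.8%) the 95% interval stayed within a 1.5-fold change in either direction, against 50.7% of all genes. The subunits and all genes were not matched for expression level, and low counts widen an interval. The median was 0.03 for complex I (22 of 35 above 0), 0.15 for complex II (3 of 4), 0.03 for complex III (5 of 8), 0.06 for complex IV (8 of 10) and 0.12 for complex V (13 of 16). These counts are descriptions, since the genes are measured in the same 6 libraries.

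**Figure D2:**
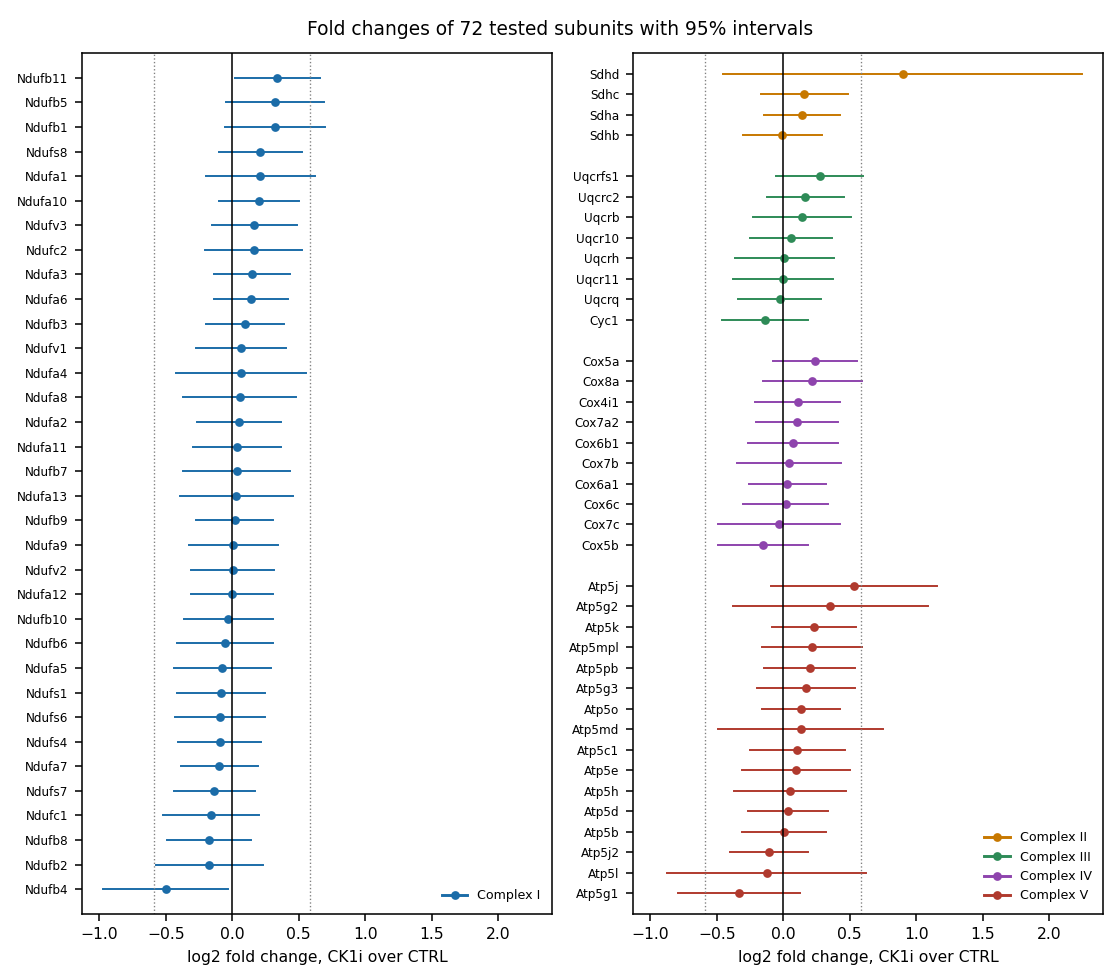
Log2 fold change, CK1i over CTRL, of 72 of the 73 tested genes (points) with 95% intervals from edgeR (lines), complex I on the left and complexes II to V on the right; dotted lines mark a 1.5-fold change. Most points lie close to 0, Sdhd has the widest interval, and the intervals of Ndufb11 and Ndufb4 alone do not reach 0.

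The libraries within a group differed as much as the groups. Summed over the 73 genes, the level was 10232, 9151 and 10278 CPM in CK1i, against 8496, 10348 and 9139 CPM in CTRL, with means of 9887 ± 638 in CK1i and 9328 ± 940 in CTRL (SD, n = 3 each). CTRL replicate 2 was the highest of all 6 libraries and CTRL replicate 1 the lowest. CTRL replicate 1 held the lowest value for 30 of the 73 genes and the highest for 1, while CTRL replicate 3 was lowest for 20 and CTRL replicate 2 highest for 16. In CK1i, replicate 3 was highest for 21 genes and replicate 1 for 19, and replicate 2 was lowest for 14. Without CTRL replicate 1 the median log2 fold change was 0.03 with 40 of 73 genes above 0, and without CTRL replicate 2 it was 0.14 with 52 above 0. The number of genes whose groups did not overlap was 15 without CTRL replicate 1 and 27 without CTRL replicate 2, where the shares over all genes were 21.5% and 21.8%. It was 12 without CK1i replicate 2 (18.2% of all genes) and 11 without CTRL replicate 3 (17.4% of all genes).

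**Figure D3:**
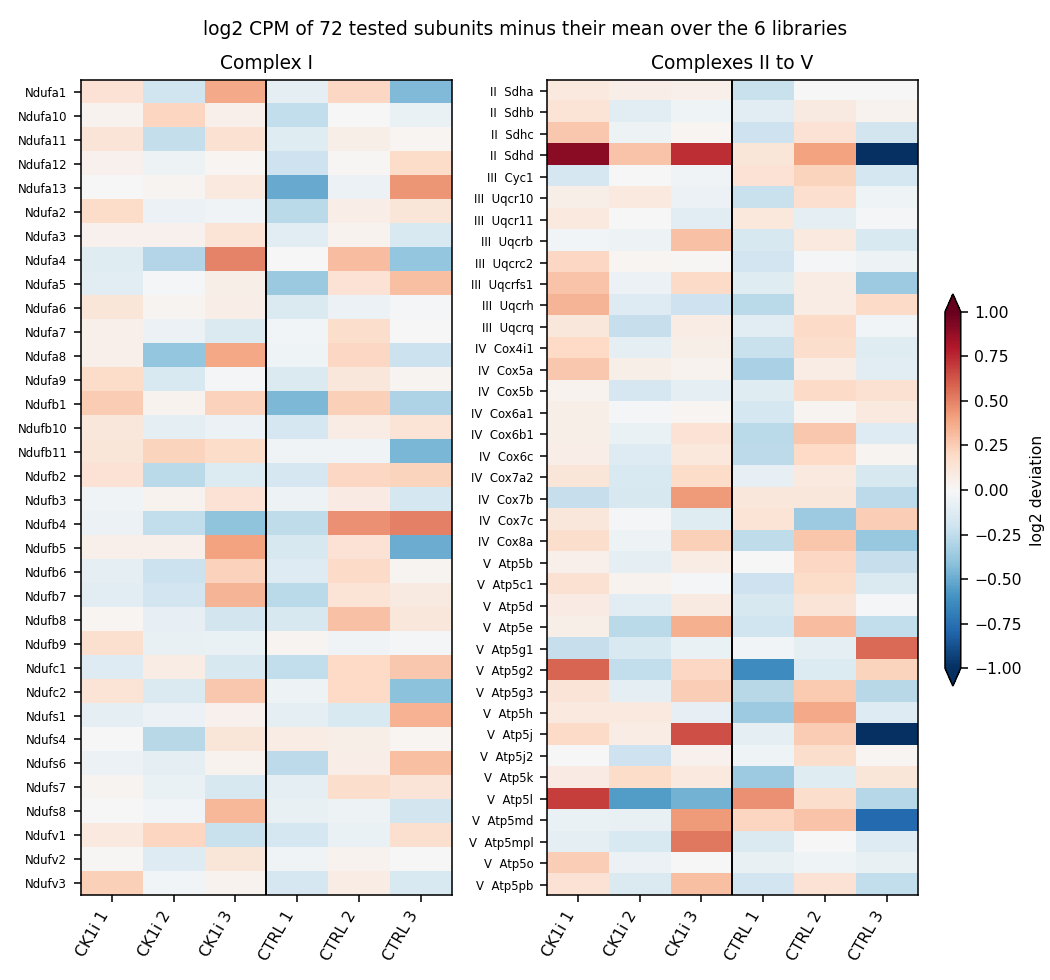
Log2 CPM of 72 of the 73 tested genes, each minus its own mean over the 6 libraries, CK1i libraries left of the line and CTRL libraries right of it, with red above and blue below the mean; colours end at 1 and -1. The CTRL 1 column is mostly blue and the CTRL 2 column mostly red, and the darkest blue cells are Sdhd and Atp5j in CTRL 3.

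By complex, the summed level of complex I was 3668, 3421 and 3707 CPM in CK1i, against 3147, 3707 and 3512 CPM in CTRL. Complex II summed to 607, 542 and 557 CPM in CK1i, against 475, 564 and 515 CPM in CTRL. Complex III summed to 1254, 1042 and 1075 CPM in CK1i, against 975, 1169 and 1085 CPM in CTRL. In each of these 3 complexes CTRL replicate 1 was the lowest library and the groups overlapped. Complex IV summed to 1988, 1772 and 2022 CPM in CK1i, against 1630, 2042 and 1755 CPM in CTRL. Complex V summed to 2715, 2374 and 2917 CPM in CK1i, against 2269, 2866 and 2272 CPM in CTRL. The groups overlapped here too, with CTRL replicate 2 near the top in both. CTRL replicate 1 was again the lowest library in both, narrowly below CTRL replicate 3 in complex V.

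In complex I, Ndufb11 and Ndufb4 were the genes with an unadjusted p under 0.05, in opposite directions. Ndufb11, an accessory subunit of the membrane arm, had 106, 114 and 111 CPM in CK1i, against 95.5, 95.4 and 71.1 CPM in CTRL. Every CK1i library lay above every CTRL library, and CTRL replicate 3 lay lowest. The log2 fold change was 0.34 ± 0.15 (SE; adjusted p = 0.999, edgeR), and 0.21 ± 0.15 without CTRL replicate 3. Its 3′ end has 1 pseudogene copy, which held 7 counts, against 1669 for the gene. Ndufb4, another accessory subunit of the membrane arm, had 26.0, 22.8 and 20.5 CPM in CK1i, against 22.7, 37.1 and 38.4 CPM in CTRL. CTRL replicates 2 and 3 lay above all CK1i libraries and CTRL replicate 1 lay among them. The log2 fold change was -0.50 ± 0.22 (SE; adjusted p = 0.999, edgeR). It was -0.71 ± 0.19 without CTRL replicate 1 and -0.36 ± 0.24 without CTRL replicate 3. Ndufb5 and Ndufb1, accessory subunits of the same arm, followed in order of p with log2 fold changes of 0.32 ± 0.17 and 0.32 ± 0.18 (SE). The row with the symbol Ndufb1 is named Ndufb1-ps in GENCODE M21 and typed as a bidirectional promoter lncRNA, not as protein coding. Ndufb5 stood at 0.19 when CK1i replicate 3 was left out, 0.18 without CTRL replicate 3 and 0.48 without CTRL replicate 2. Ndufb1 stood at 0.19 without CTRL replicate 1 and 0.55 without CTRL replicate 2.

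The core subunits of complex I, which carry its flavin and iron-sulfur centres or shape the quinone site, showed no common direction. Ndufs8, which carries 2 iron-sulfur clusters, had 81.6, 79.9 and 102 CPM in CK1i, against 77.4, 78.6 and 71.4 CPM in CTRL. The groups did not overlap, with a gap between CK1i replicate 2 and CTRL replicate 2 that was small beside the spread, and the log2 fold change was 0.21 ± 0.15 (SE), and 0.08 without CK1i replicate 3. Ndufs7, which holds the last cluster before the quinone, stood at -0.14 ± 0.14 (SE), and -0.22 without CTRL replicate 1. Ndufs1, the largest subunit, had 147, 149 and 160 CPM in CK1i, against 146, 141 and 199 CPM in CTRL, so its log2 fold change of -0.09 ± 0.15 (SE) came with a single high CTRL library and was 0.09 without it. Ndufv1, the NADH-binding flavoprotein, stood at 0.07 ± 0.16 and Ndufv2, its partner, at 0.00 ± 0.15 (SE). Ndufa4 has a complex I name but is now known as a subunit of complex IV; it had a log2 fold change of 0.06 ± 0.23 (SE).

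Complex II holds the gene with the highest fold change of the 73. Sdha, the flavin subunit that oxidises succinate, had 307, 301 and 298 CPM in CK1i, against 247, 288 and 288 CPM in CTRL, with no overlap and a log2 fold change of 0.14 ± 0.13 (SE), and 0.07 without CTRL replicate 1. Sdhb, the iron-sulfur subunit, had 137, 115 and 121 CPM in CK1i, against 115, 133 and 127 CPM in CTRL, which overlapped fully. Sdhc, a membrane anchor, stood at 0.16 ± 0.15 (SE) on the log2 scale, and between 0.05 without CK1i replicate 1 and 0.27 without CTRL replicate 2. Sdhd, the other membrane anchor, had 30.6, 19.9 and 27.3 CPM in CK1i, against 17.7, 21.6 and 3 CPM in CTRL. A single library, CTRL replicate 3, lay far below the other 5, with 9 counts where the others held between 50 and 93. The log2 fold change was 0.90 ± 0.56 (SE; adjusted p = 0.999, edgeR) and was 0.40 ± 0.24 without that library. limma-voom gave 1.32, with an adjusted p of 0.964.

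Sdhd shares a bidirectional start region with Timm8b, which encodes a chaperone of the mitochondrial intermembrane space and starts on the other strand, 98 bases away in GENCODE and 52 in RefSeq. Timm8b had 59.2, 45.3 and 67.4 CPM in CK1i, against 55.4, 72.7 and 53.4 CPM in CTRL. CTRL replicate 3 was not far below the others for Timm8b, so the low value of that library was seen for Sdhd and not for its neighbour. The complex V genes Atp5j and Atp5md were also well below their own mean in CTRL replicate 3, with deviations of -1.02 and -0.73 on the log2 scale, beside -2.23 for Sdhd. The next lowest deviation among the 73 genes was -0.56, for Atp5g2 in CTRL replicate 1.

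**Figure D4:**
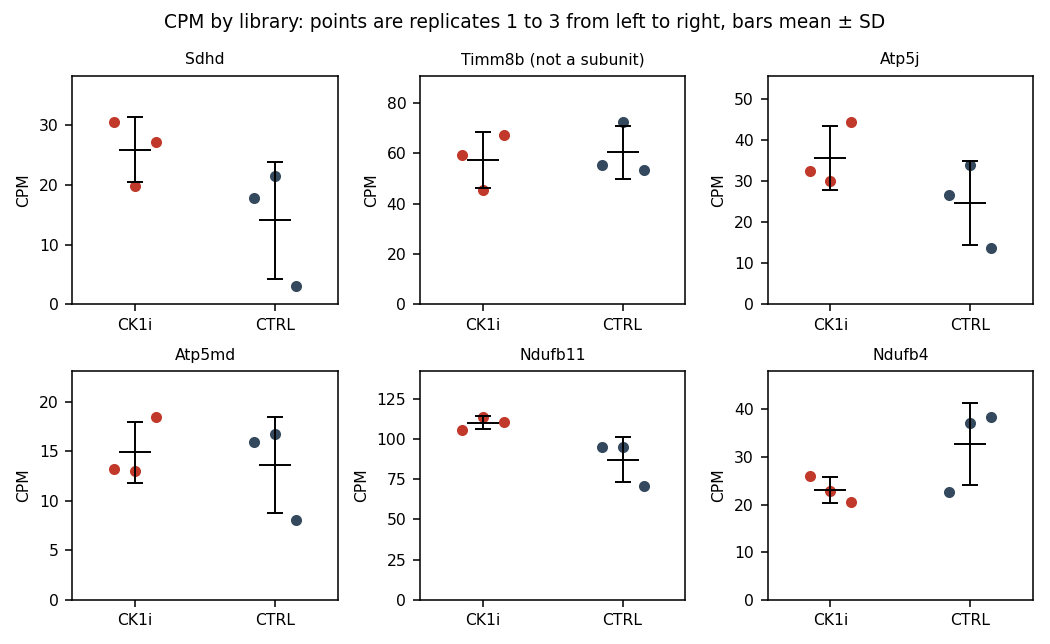
CPM in each library (points, replicates 1 to 3 from left to right) with mean ± SD for 5 subunit genes and for Timm8b, the divergent neighbour of Sdhd, CK1i left and CTRL right. CTRL replicate 3 is lowest for Sdhd, Atp5j and Atp5md, while Timm8b in the same library lies beside CTRL replicate 1.

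Start regions were read for the genes with the lowest p and for Sdhd, to show the letters around the starts of the 3 genes that stood out. The sequences are from RefSeq on GRCm38.p6, 5′ to 3′ on the strand of the gene, and end at the base before its start. Capitals mark matches, on either strand, to GCGCA, any base and GCGC, the motif of the transcription factor NRF1, and to CCGGAAG, a motif of ETS factors such as GABPA. NRF1 and GABPA are known regulators of respiratory chain genes. The Sdhd stretch is cut after the first 30 bases of Timm8b, and its NRF1 and ETS matches lie in the start windows of both genes.
Sdhd, chr9:50603850-50603930, minus strand: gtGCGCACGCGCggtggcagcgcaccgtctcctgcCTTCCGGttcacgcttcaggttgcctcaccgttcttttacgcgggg
Ndufb4, chr16:37654369-37654618, minus strand: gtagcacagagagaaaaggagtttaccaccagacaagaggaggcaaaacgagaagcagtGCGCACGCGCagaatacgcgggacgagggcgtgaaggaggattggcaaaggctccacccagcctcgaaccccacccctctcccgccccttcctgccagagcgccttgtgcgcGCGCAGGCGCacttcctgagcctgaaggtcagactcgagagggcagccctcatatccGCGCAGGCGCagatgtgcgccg
Ndufb11, chrX:20617620-20617869, minus strand: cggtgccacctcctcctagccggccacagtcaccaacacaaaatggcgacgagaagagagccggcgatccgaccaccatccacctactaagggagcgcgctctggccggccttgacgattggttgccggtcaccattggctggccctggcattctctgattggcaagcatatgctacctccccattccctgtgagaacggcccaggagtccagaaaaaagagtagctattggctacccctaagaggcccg
Ndufb4 held 3 NRF1 matches and Ndufb11 none of either motif.

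Over the set, 68 of the 85 genes had a RefSeq start window, running from 250 bases before to 50 after the start. The NRF1 motif was found in 17 of the 68 (25.0%), against 13.3% of the 7711 tested genes with a window and 5.19% of all 27025 genes with one. By complex it was found in 7 of 33 windowed genes of complex I, 2 of 3 of complex II (Sdha and Sdhd), 1 of 5 of complex III, 1 of 12 of complex IV and 6 of 15 of complex V. The ETS motif was found in 25.0% of the 68, against 23.8% of tested genes and 9.93% of all genes. The motif of YY1, another known regulator, searched as ATGGCGGC, was found in 8.82%, all in complex I, against 6.77% of tested genes and 2.60% of all genes. The SP1 motif GGGCGG was found in 39.7%, against 70.4% of tested genes and 38.2% of all genes. Genes with an NRF1 match had a median log2 fold change of 0.11 (15 tested), and those without had 0.04 (46 tested). The medians with and without a match were 0.06 and 0.06 for ETS, -0.09 and 0.06 for YY1 (6 genes with a match), and 0.10 and 0.04 for SP1. Letters alone do not show that a factor binds there.

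In complex III, Uqcrfs1, the Rieske iron-sulfur protein, had 177, 140 and 166 CPM in CK1i, against 133, 153 and 113 CPM in CTRL. The groups overlapped through CK1i replicate 2 and CTRL replicate 2, and the log2 fold change was 0.27 ± 0.15 (SE). Cyc1, the cytochrome c1 subunit that passes electrons to cytochrome c, had 65.5, 73.7 and 71.8 CPM in CK1i, against 81.3, 85.8 and 65.1 CPM in CTRL, with a log2 fold change of -0.14 ± 0.15 (SE). The estimates of these 2 catalytic genes thus had opposite signs. Uqcrfs1 stood at 0.17 without CTRL replicate 3, and Cyc1 at -0.07 without CTRL replicate 2 and -0.25 without CTRL replicate 3. Uqcrc2, a core protein, had 190, 166 and 165 CPM in CK1i, against 144, 163 and 158 CPM in CTRL, with no overlap between groups and 0.17 ± 0.13 (SE), and 0.10 without CK1i replicate 1. The 3′ end of Uqcrc2 lies opposite an exon of Pdzd9, which had 0 counts. The 5 small subunits lay between -0.03 and 0.14 on the log2 scale.

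In complex IV, all 10 genes tested were ubiquitous isoforms, with log2 fold changes between -0.15 and 0.24. Cox5a, a matrix-side subunit, had 343, 297 and 292 CPM in CK1i, against 228, 299 and 263 CPM in CTRL, with 0.24 ± 0.15 (SE), and 0.14 without CTRL replicate 1. CTRL replicate 2 lay above CK1i replicates 2 and 3, so the groups overlapped. The 3′ end of Cox5a lies partly opposite Gm26631, which had 5 counts, against 4862 for Cox5a. Cox5b, which binds zinc on the matrix side, had 52.0, 45.0 and 47.7 CPM in CK1i, against 46.5, 57.9 and 56.4 CPM in CTRL, with -0.15 ± 0.16 (SE), and -0.25 without CTRL replicate 1. Cox4i1, the regulatory subunit that binds ATP, stood at 0.11 ± 0.15 (SE), and between 0.03 without CTRL replicate 1 and 0.23 without CTRL replicate 2. Counted with complex IV, Ndufa4 left the median of that complex at 0.06.

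In complex V, 13 of 16 estimates were above 0, including all 4 tested genes of the F1 head, with a median of 0.07, and all 4 of the peripheral stalk, with a median of 0.17. Atp5j, which encodes coupling factor 6 of the stalk, had 32.6, 30 and 44.5 CPM in CK1i, against 26.6, 33.9 and 13.7 CPM in CTRL. CTRL replicate 3 lay lowest and CTRL replicate 2 above 2 of the CK1i libraries. The log2 fold change was 0.53 ± 0.29 (SE; adjusted p = 0.999, edgeR), and 0.24 ± 0.22 without CTRL replicate 3. It was 0.34 when CK1i replicate 3 was left out, and 0.81 without CTRL replicate 2. A pseudogene copy of its 3′ end held 19 counts, against 503 for Atp5j. Atp5b, the catalytic β subunit, had 388, 352 and 395 CPM in CK1i, against 376, 434 and 320 CPM in CTRL, with 0.01 ± 0.15 (SE). Atp5g1 had 20.7, 21.9 and 23.3 CPM in CK1i, against 23.8, 22.8 and 36.1 CPM in CTRL, with -0.33 ± 0.21 (SE), while the dominant c subunit gene Atp5g3 had 685, 590 and 742 CPM in CK1i, against 518, 753 and 518 CPM in CTRL, with 0.17 ± 0.17 (SE). Atp5g1 was thus raised in CTRL replicate 3, the library in which Atp5j was lowest, and without it stood at -0.09.

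Genes that build the complexes were set beside the subunits. Of 50 tested assembly factors, with Tmem70 listed under both complex I and complex V, 25 had a log2 fold change above 0 and 25 below, with a median of 0.00, and none passed the adjusted threshold. The complex I factors had 6 of 16 above 0 and a median of -0.16, the complex II factors 1 of 4 and -0.12, and the complex III factors 2 of 6 and -0.14. The complex IV factors had 14 of 20 above 0 and a median of 0.08, and the complex V factors 3 of 5 and 0.02. Ndufaf4, which helps build the early part of complex I, had the lowest p among them. It had 65.5, 63.3 and 61.4 CPM in CK1i, against 82.4, 80.6 and 100 CPM in CTRL. All CK1i libraries lay below all CTRL libraries, with a log2 fold change of -0.47 ± 0.14 (SE; adjusted p = 0.828, edgeR). In the other assembly lists the lowest p values belonged to Sdhaf4 at 0.49 ± 0.24, Uqcc1 at -0.39 ± 0.19, Cmc2 at 0.34 ± 0.18 and Tmem70 at 0.27 ± 0.17 (log2 fold change, SE).

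**Figure D5:**
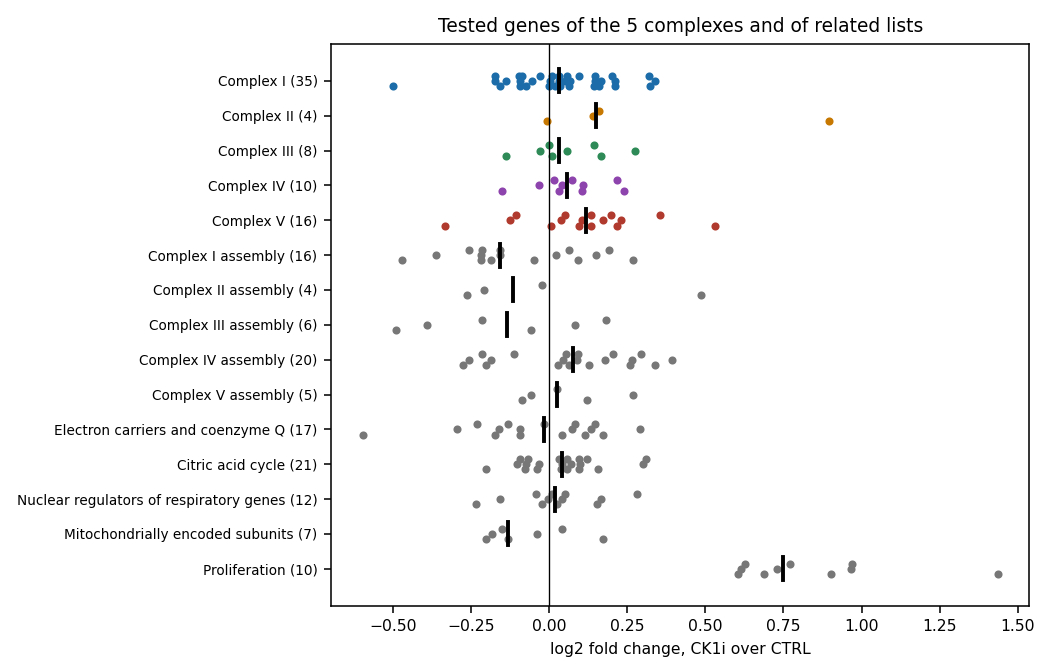
Log2 fold change, CK1i over CTRL, of each tested gene (points) and the median (black bar) for the 5 complexes and for related lists, with the number tested in brackets. The bars of the complexes and the mitochondrial lists lie between -0.16 and 0.15, while all 10 proliferation genes lie at 0.60 or above.

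Around the chain, the 17 genes of electron carriers and coenzyme Q synthesis had 8 estimates above 0 and a median of -0.02, with Coq8b, a kinase-like protein of coenzyme Q synthesis, at -0.60 ± 0.34 (SE). The 21 genes of the citric acid cycle and pyruvate dehydrogenase had 13 above 0 and a median of 0.04, with Pdhx at 0.31 ± 0.20 (SE). The 7 tested of 13 mitochondrially encoded subunits had 2 above 0 and a median of -0.13, with mt-Cytb, the cytochrome b of complex III, at -0.20 ± 0.21 (SE). Of the 13, 3 had 0 counts in every library, and the cause was not tested. The summed level of the mitochondrially encoded genes was between 40701 and 57929 CPM in CK1i, against between 48506 and 64520 CPM in CTRL, so the ranges overlapped. Of the nuclear regulators of respiratory genes, 12 of 14 were tested, with 7 above 0 and a median of 0.02. Nrf1 stood at -0.02 ± 0.14, Gabpa at 0.00 ± 0.15, Yy1 at 0.01 ± 0.13 and Myc at 0.28 ± 0.19 (log2 fold change, SE), and Ppargc1a, a coactivator known from muscle and brown fat, had 1 count over the 6 libraries. Of the components outside the name rule, Ndufab1, the acyl carrier protein of complex I, stood at 0.04 ± 0.21 and Cycs, cytochrome c itself, at -0.29 ± 0.26 (log2 fold change, SE). The proliferation list had larger values, with all 10 genes above 0 (48.8% of all genes) and a median of 0.75. At an unadjusted p under 0.05 in edgeR stood 9 of the 10, all higher in CK1i, against 2.70% of all genes. None passed the adjusted threshold, and the list was chosen with earlier results of these data known.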

How the data were processed

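Splenic leukaemic B cells of 3 CK1i and 3 CTRL libraries were sequenced with QuantSeq 3′ libraries carrying molecular identifiers. The deposited table holds raw counts per gene, which the authors made from reads on GRCm38.p6; the submitters' processing notes name STAR 2.7.3a, featureCounts 1.6.3, UMI-tools 1.1.1, Trimmomatic 0.36 and Picard 2.18.27, without parameters. The collapsing of molecular identifiers and the strand setting are not given in the sources used here.

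Genes were annotated with GENCODE M21 (54165 of 54232 rows matched by ID). All genes with enough counts (filterByExpr, minimum count 10, minimum total 15) entered one robust quasi-likelihood fit in edgeR 4.0.16 under R 4.3.3, with TMM scaling and Benjamini-Hochberg adjustment over 10067 genes. CPM values are TMM-scaled. Scripts were tested on simulated data. Alternatives were RLE scaling, library totals, no filter, minimum count 20, limma-voom (limma 3.58.1), DESeq2 1.42.0, each replicate left out, and Ndufa4 counted with complex IV. Copies of 3′ ends (last 500 exonic bases) were sought with blastn 2.17.0. A level allowed by 0 counts is 3 counts over the summed totals and covers counting error only.

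Members and lists were chosen with earlier results of these data known. Named genes are, per complex, the lowest p in each direction, the 5 lowest p of all members, the catalytic or structural core, tissue isoforms and the lowest p of each other list; Timm8b, Atp5md, Atp5g2, Atp5g3, Ndufs5, Ndufa4, the non-overlapping genes and the regulators were named after their values were seen. The values of 1 gene are not reported here; it stays in the counts and sums.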

Additional observations from a re-analysis of the deposited data

How the results depend on the processing

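No subunit gene passed the adjusted threshold under any alternative run. The number at an unadjusted p under 0.05 was 2 as reported with edgeR and 0 with DESeq2 (3.16% of all genes). It was 4 of 80 genes with no filter on low counts (4.05% of all genes). Of these 4, Atp5a1 and Cox6a2 held only 21 and 5 counts over the 6 libraries, most of them in CK1i. Both also had groups that did not overlap in that run. When a replicate was left out the number lay between 0 and 6, where the share of all genes lay between 3.42% and 6.73%. The number with groups that did not overlap was 7 as reported, 5 with library totals (9.37% of all genes), 10 with no filter (7.78% of all genes) and between 8 and 27 when a replicate was left out (between 17.4% and 21.8% of all genes); smaller groups overlap less often by construction. The median log2 fold change over the set lay between 0.02 and 0.14 when a replicate was left out. By complex it lay between -0.02 and 0.08 for complex I, 0.08 and 0.22 for complex II, -0.01 and 0.11 for complex III, 0.02 and 0.15 for complex IV, and 0.05 and 0.24 for complex V. Estimates near 0 changed sign: Ndufv2 was -0.0019 with limma-voom and Sdhb 0.0011 with library totals. With a replicate left out, Atp5b lay between -0.0964 and 0.112, Ndufs1 between -0.184 and 0.0904, Ndufv1 between -0.0323 and 0.173, Ndufv2 between -0.0653 and 0.0644, and Sdhb between -0.0815 and 0.0414; the cause was not tested. Leaving Atp5s and Atp5sl out of complex V did not apply, as no row carries those symbols. No paired analysis was possible because the labels give the groups no shared replicate numbers. With 3 libraries a group, the 95% interval reached a 1.5-fold change for 14 of the 73 subunits. It stayed within that limit for the other 59 (80.8%), against 50.7% of all genes, which were not matched to the subunits for expression level.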
